A study of Mus musculus with 21 samples.

Results

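Interferon response genes are the genes that cells switch on when they sense a virus or receive an interferon signal. A list of 36 was followed in EL4 cells, a mouse T lymphoma line of C57BL/6 origin, with a hairpin against Ctcf (shCTCF, 2 libraries) or the hairpin named shLuc, by its name one against luciferase (2 libraries). Members were the rows of the deposited expression table with a listed symbol, and where a symbol had several rows the one with the highest mean was used. Of the 36 genes, 34 had a row of their own among 21844 symbols. Parp9 and Adar occurred only in rows joined with a neighbour, Dtx3l+Parp9 and Adar+Chrnb2, and are described from those rows.

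The libraries were made from polyA RNA. The study also holds 4 Hi-C libraries and 12 ChIP or input libraries, and 1 EL4 RNA library with no hairpin in its label; none of these is analysed here. CTCF binds DNA through zinc fingers, acts at insulators and helps to shape chromatin loops, and the study asked what its loss does to gene expression. The labels describe no interferon, virus or nucleic acid treatment of the EL4 cells, and give neither the way the hairpin was delivered nor a second hairpin against Ctcf, so a response to less Ctcf and a response to the hairpin itself cannot be told apart. Nor do they state whether the 2 libraries of a hairpin stem from separate cultures. The p-values therefore describe library-to-library spread, and this may be technical only.

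In the interferon response, cytosolic sensors such as RIG-I and MDA5 recognise viral RNA and signal through MAVS to IRF3 and IRF7, which switch on the type I interferon genes. Secreted interferon binds the IFNAR receptor, the kinases JAK1 and TYK2 phosphorylate STAT proteins such as STAT2, and these join IRF9 to form the factor ISGF3. ISGF3 binds the interferon-stimulated response element, in which the core GAAA is repeated after 2 bases, and factors activated by interferon-gamma bind the gamma-activated sequence, with the core TTCNNNGAA. The genes that carry these elements encode antiviral enzymes, GTPases, membrane proteins and the sensors and factors of the pathway itself. Many are also transcribed at a low level without interferon.

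What the members share in sequence was read from RefSeq promoter windows of GRCm38.p6, from 250 bases before to 50 bases after an annotated start. Of the 36 genes, 28 had an entry. A window with GAAA repeated after 2 bases, on either strand, was found for 15 of these 28 (53.6%), against 3.99% of 27025 genes with an entry. With the further demand that a C follows the second GAAA, the counts were 13 of 28 (46.4%) and 0.944%. The sequence TTCNNNGAA, which reads the same on both strands, was found for 9 of 28 (32.1%), against 9.55% of genes. A match is a stretch of letters and not evidence of binding, and no entry was found for Mx1, Mx2, Oas2, Usp18, Dhx58, Parp9, Parp14 or Zbp1. Stretches upstream of the start are printed for 3 members that were higher in value in shCTCF cells (Gbp3, Isg15 and Bst2), for 2 that were lower in value (Oas3 and Oas1g) and for Ifit1, which gave 1 read in all. They run 5′ to 3′ on the gene's strand. Capitals mark the GAAA repeats, which read TTTC where the element lies on the other strand, and in Bst2 also a TTCNNNGAA match that overlaps the first GAAA.
Gbp3 (chr3:142559979-142560034, + strand): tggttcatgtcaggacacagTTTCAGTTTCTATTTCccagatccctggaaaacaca
Isg15 (chr4:156200855-156200916, − strand): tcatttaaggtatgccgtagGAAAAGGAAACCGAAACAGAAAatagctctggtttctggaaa
Bst2 (chr8:71537567-71537628, − strand): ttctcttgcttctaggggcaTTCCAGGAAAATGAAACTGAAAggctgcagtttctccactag
Oas3 (chr5:120777705-120777754, − strand): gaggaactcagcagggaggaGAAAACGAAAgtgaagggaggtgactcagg
Oas1g (chr5:120887614-120887651, − strand): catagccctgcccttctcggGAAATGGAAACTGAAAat
Ifit1 (chr19:34640765-34640833, + strand): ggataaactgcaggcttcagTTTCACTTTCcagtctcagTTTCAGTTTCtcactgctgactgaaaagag
The element is therefore present upstream of members that were higher in value, lower in value and barely detected. Isg15 holds 3 overlapping repeats, Gbp3, Bst2 and Oas1g hold 2 overlapping ones, and Ifit1 holds 2 separate ones.

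**Figure D1:**
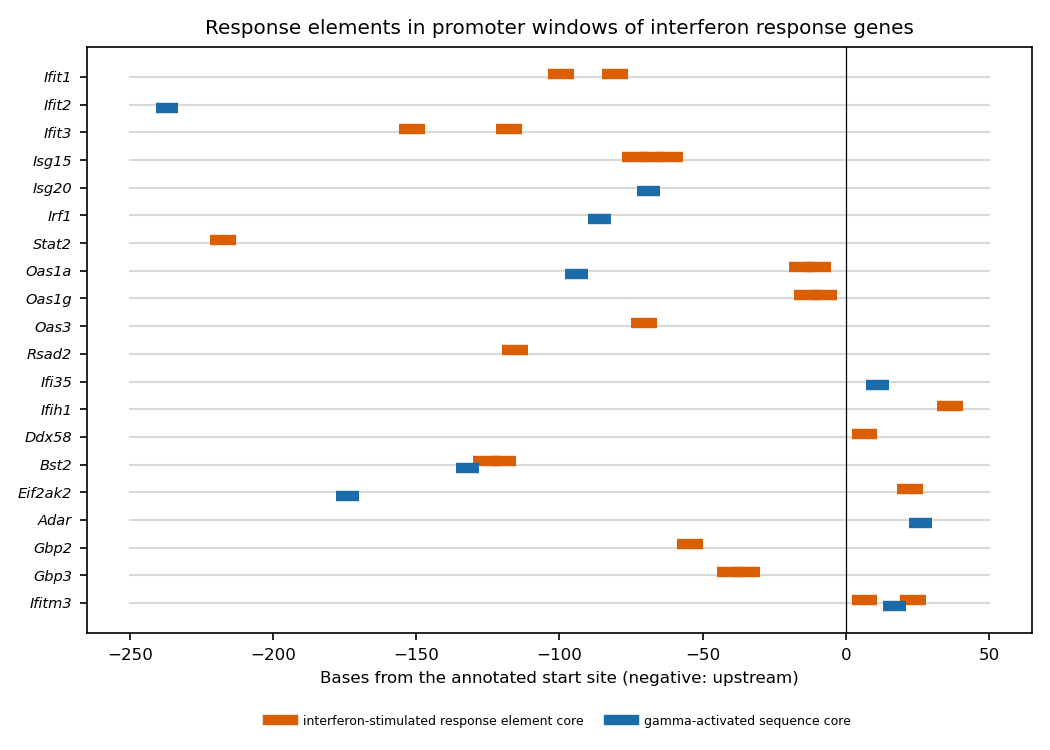
Positions of the response element cores in promoter windows of the interferon response genes that hold one, as bases from the annotated start site. Orange bars are GAAA repeats, blue bars TTCNNNGAA matches and grey lines the window; in Ifih1, Ddx58, Eif2ak2 and Ifitm3 the GAAA repeat lies after the start site.

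Ctcf itself (NM_181322) was at 26.5 and 26.4 RPKM in shCTCF cells, against 49.0 and 50.9 RPKM in shLuc cells. RPKM counts the reads on a gene per kilobase of its length, scaled for the depth of the library. Ctcf fell by 0.89 on the log2(RPKM + 1) scale (SE 0.08, adjusted p = 0.0075 in limma), but no longer passed when either shLuc library was left out (adjusted p 0.146 and 0.148). All log2 changes below are shCTCF minus shLuc on that scale. The added 1 shrinks the change of genes with few reads. The depth implied by the RPKM steps was 4346709 and 5768562 reads in shCTCF and 5240361 and 6133045 reads in shLuc libraries, so 1 read on a 1 kb gene model was worth 0.163 to 0.230 RPKM. T cell markers were high in every library, with 9 marker genes summing to 2152 and 2109 RPKM in shCTCF and 2444 and 2377 RPKM in shLuc cells.

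Few of the members passed the test, and with 2 libraries per hairpin a change can be missed. Genes entered the test if their RPKM averaged 1 or more, which 25 members did and 9 did not. Mx1 was higher in shCTCF cells at an adjusted p below 0.05, and 0 members were lower; limma called 0.697% of all 9898 tested genes higher and 0.596% lower. At an unadjusted p below 0.05 there were 7 members (Mx1, Gbp3, Bst2, Isg15, Zbp1 and Mx2 higher in value, Oas3 lower), against 1398 of the 9898 genes. By value alone, the shCTCF libraries lay above both shLuc libraries in 14 tested members and below both in 5, and these shares over all tested genes were 24.1% and 19.9%. The median log2 change of the tested members was 0.19, with 16 positive and 9 negative, and that of all tested genes was 0.01. It was 0.01 over the 11 members with a mean of 5 RPKM or more and 0.22 over the 14 between 1 and 5 RPKM. Mx2, Isg15, Rsad2, Gbp2 and Gbp3 met the filter only through their shCTCF values, and Oas1g only through its shLuc values, so the counts over tested members lean towards genes that differ; over the 19 that met it in both groups, 11 were positive, 8 negative and the median was 0.14. Summed over the 34 rows, members stood at 287 and 288 RPKM in shCTCF and 255 and 248 RPKM in shLuc cells, and Bst2 made up the largest part.

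**Figure D2:**
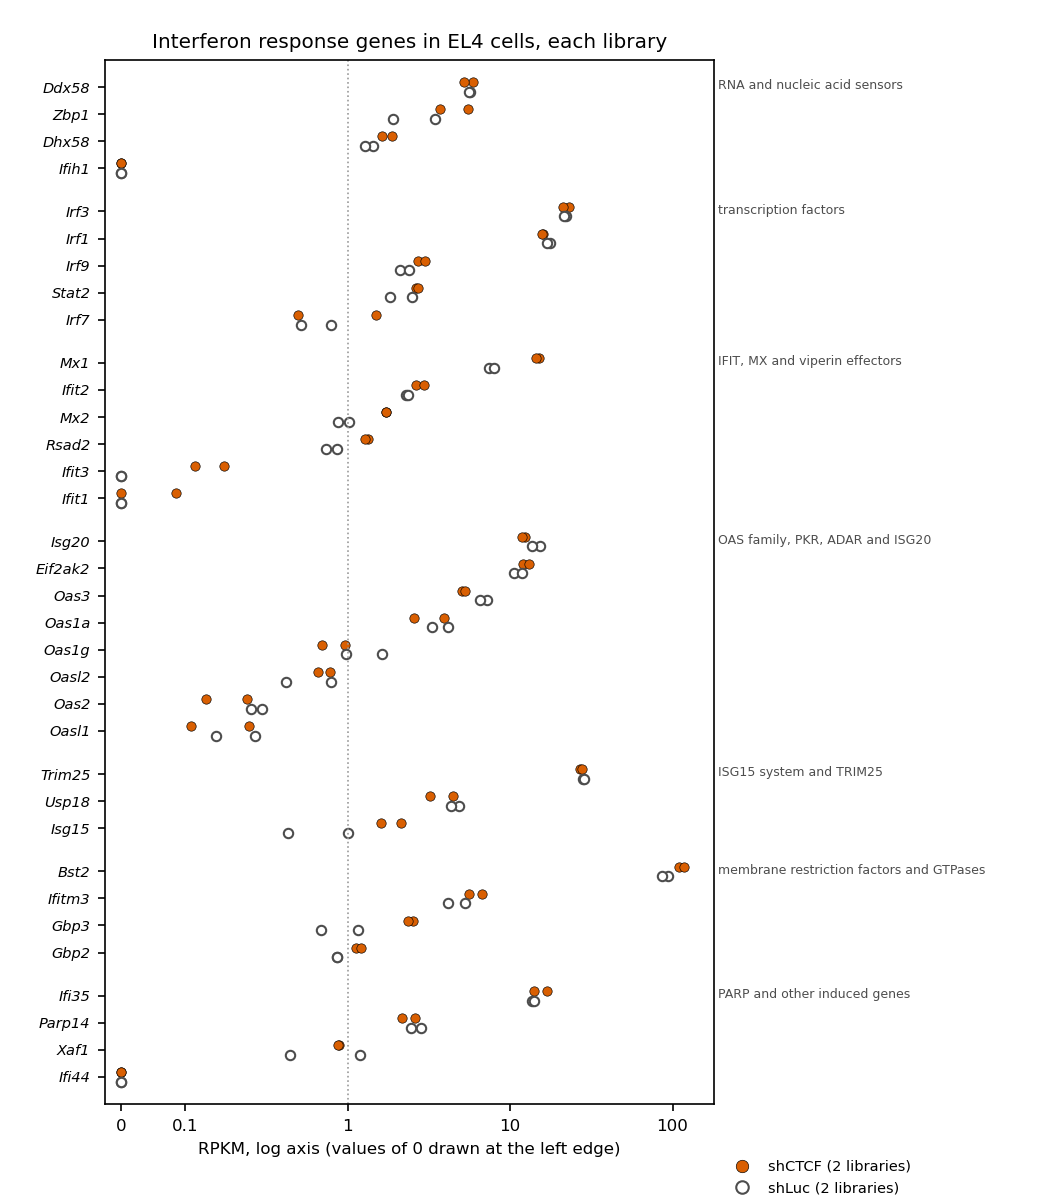
RPKM (log axis) of the 34 interferon response genes with a row of their own, in each of the 2 shCTCF (filled) and 2 shLuc libraries (open), grouped by role. The dotted line marks 1 RPKM; Mx1, Gbp3, Isg15 and Bst2 show shCTCF points to the right of both shLuc points, and Ifi44 and Ifih1 lie at 0 in all 4 libraries.

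Among the effectors of the IFIT, MX and viperin families, 4 genes were tested and limma called Mx1. All were higher in value, but Mx2 and Rsad2 met the filter only through their shCTCF values. Mx1, a dynamin-like GTPase that blocks influenza virus in the nucleus, was at 14.9 and 14.4 RPKM in shCTCF cells, against 7.39 and 7.93 RPKM in shLuc cells. The groups stood well apart and the libraries within each lay close together. Mx1 rose by 0.86 (SE 0.10, adjusted p = 0.0095 in limma), with a mean 1.91 times that of shLuc cells. With 1 library left out its log2 change stayed between 0.81 and 0.90, and it passed without the shCTCF library headed 3 (adjusted p 0.045) and did not pass without the shCTCF library headed 2 (0.0508), the shLuc library headed 2 (0.159) or the shLuc library headed 3 (0.148). The RefSeq table for the C57BL/6J genome annotates Mx1 and Mx2 as transcribed pseudogenes, and laboratory strains of this background are known to carry a defective Mx1, so the row measures RNA and not a working protein.

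Mx2, its neighbour and paralog, was at 1.71 and 1.72 RPKM in shCTCF cells, against 0.869 and 1.01 RPKM in shLuc cells. The groups did not overlap, but the change of 0.49 (SE 0.19) did not pass (adjusted p = 0.31). Reads that match both MX genes could be assigned to either, and the sources used here do not say how they were counted. Rsad2, which encodes viperin, an enzyme that makes a chain-terminating nucleotide, had 22 and 28 reads in shCTCF cells and 17 and 17 in shLuc cells (log2 change 0.36, adjusted p = 0.50). This was 1.34 and 1.28 RPKM in shCTCF cells, against 0.857 and 0.732 RPKM in shLuc cells, so the groups did not overlap. Ifit2, one of the RNA-binding IFIT proteins, was at 2.62 and 2.94 RPKM in shCTCF cells, against 2.27 and 2.35 RPKM in shLuc cells (log2 change 0.19, adjusted p = 0.67). The other 2 members of this cluster were barely detected. Ifit3 gave 1 and 2 reads in the shCTCF libraries and 0 in both shLuc libraries, and Ifit1 gave 1 read in the shCTCF library headed 2 and 0 elsewhere. Neither count differs from what 0 reads allow, up to 3 reads per library.

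The membrane restriction factors and guanylate-binding GTPases comprised 4 tested genes, of which limma called 0, with 2 at an unadjusted p below 0.05. All were higher in value, but Gbp2 and Gbp3 met the filter only through their shCTCF values, so that count is a description only. Bst2 (tetherin, which holds budding virus particles at the cell surface) was the most abundant member, at 109.6 and 118 RPKM in shCTCF cells, against 93.9 and 86.4 RPKM in shLuc cells. Both shCTCF libraries lay above both shLuc libraries. The log2 change was 0.34 (SE 0.08, adjusted p = 0.12; 0.036 in limma-voom on recovered reads and 0.027 with a replicate block), and the ratio of read rates, 888 reads in shCTCF against 783 in shLuc, was 1.28 with a 95% exact interval of 1.16 to 1.41 that covers counting error only.

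Gbp3, an interferon-gamma-induced GTPase that coats intracellular pathogens, was at 2.53 and 2.36 RPKM in shCTCF cells, against 1.16 and 0.680 RPKM in shLuc cells. These values rest on 29 and 36 reads in shCTCF and 16 and 11 reads in shLuc libraries, a rate ratio of 2.71 (1.70 to 4.41). Its log2 change was 0.86 with a SE of 0.20 and did not pass (adjusted p = 0.10 in limma). It was 1.36 with a pseudocount of 0.1 (adjusted p = 0.13), against 0.93 for Mx1 in that setting. Gbp3 passed in limma-voom on recovered reads (1.45, adjusted p = 0.0052) and with a replicate block (adjusted p = 0.039). Gbp2, next to it on the chromosome, was at 1.12 and 1.20 RPKM in shCTCF cells, against 0.855 and 0.863 RPKM in shLuc cells (log2 change 0.22, adjusted p = 0.72). GBP genes are near-identical in part, so reads could be split between them. Ifitm3, which blocks the fusion of viruses in endosomes, was at 6.75 and 5.62 RPKM in shCTCF cells, against 4.12 and 5.28 RPKM in shLuc cells (log2 change 0.34, adjusted p = 0.39). Its groups did not overlap, though the shCTCF library headed 3 and the shLuc library headed 3 were close. Behind these values stood 19 and 21 reads in shCTCF and 14 and 21 reads in shLuc libraries. The rate ratio was 1.29, with an interval of 0.796 to 2.08 that includes no change.

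Of 5 tested genes among the OAS family, PKR and ISG20, 4 were negative, one of which (Oas1g) met the filter only through its shLuc values. Limma called 0, with 1 (Oas3) at an unadjusted p below 0.05. OAS enzymes make oligoadenylates that activate RNase L. Oas3, which responds to long double-stranded RNA, was at 5.02 and 5.29 RPKM in shCTCF cells, against 7.20 and 6.50 RPKM in shLuc cells. Both shCTCF libraries lay below both shLuc libraries. The change was −0.35 (SE 0.13, adjusted p = 0.25), and the rate ratio over 247 and 366 reads was 0.759 (0.643 to 0.894).

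Oas1g was at 0.693 and 0.957 RPKM in shCTCF cells, against 1.63 and 0.982 RPKM in shLuc cells, with only 17 reads in shCTCF and 29 in shLuc (log2 change −0.33, adjusted p = 0.60). The change was −0.12 with shLuc library 2 left out, −0.53 with library 3 left out and −0.58 with a pseudocount of 0.1. Oas1a overlapped between groups, at 3.90 and 2.57 RPKM in shCTCF cells, against 4.14 and 3.28 RPKM in shLuc cells (log2 change −0.17). It turned positive, to 0.06, without the shCTCF library headed 3. The Oas1 copies are close paralogs, so reads may be shared between them. Isg20, a 3′ to 5′ RNA exonuclease, was at 12.3 and 11.8 RPKM in shCTCF cells, against 15.3 and 13.6 RPKM in shLuc cells (log2 change −0.24, adjusted p = 0.36). Eif2ak2, which encodes the RNA-activated kinase PKR, was the exception in the group, at 12.1 and 13.1 RPKM in shCTCF cells and 10.6 and 11.8 RPKM in shLuc cells (log2 change 0.16, adjusted p = 0.58). The joined row of Adar, an RNA editing enzyme, with Chrnb2 was at 27.8 and 27.5 RPKM in shCTCF cells, against 27.1 and 28.2 RPKM in shLuc cells, with overlapping groups. Oas2, Oasl1 and Oasl2 were untested, at 0.108 to 0.774 RPKM in shCTCF and 0.154 to 0.791 RPKM in shLuc libraries.

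The ISG15 system was mixed. Isg15, a ubiquitin-like modifier, was at 2.13 and 1.61 RPKM in shCTCF cells, against 1.01 and 0.431 RPKM in shLuc cells. That was 7 and 7 reads in shCTCF and 4 and 2 reads in shLuc libraries, a rate ratio of 2.62 whose interval of 0.947 to 8.33 includes no change (log2 change 0.75, SE 0.24, adjusted p = 0.21; 1.34 with a pseudocount of 0.1). Usp18, the protease that removes ISG15 and restrains IFNAR signalling, was at 4.42 and 3.23 RPKM in shCTCF cells, against 4.85 and 4.33 RPKM in shLuc cells (log2 change −0.22). Its groups overlapped, and the change was −0.04 with shCTCF library 3 left out and −0.40 with library 2 left out. Trim25, a ubiquitin ligase in RIG-I signalling and the second most abundant member, was at 27.1 and 27.7 RPKM in shCTCF cells, against 28.2 and 28.5 RPKM in shLuc cells. The groups did not overlap, but the change was only −0.05 (SE 0.08, adjusted p = 0.88).

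**Figure D3:**
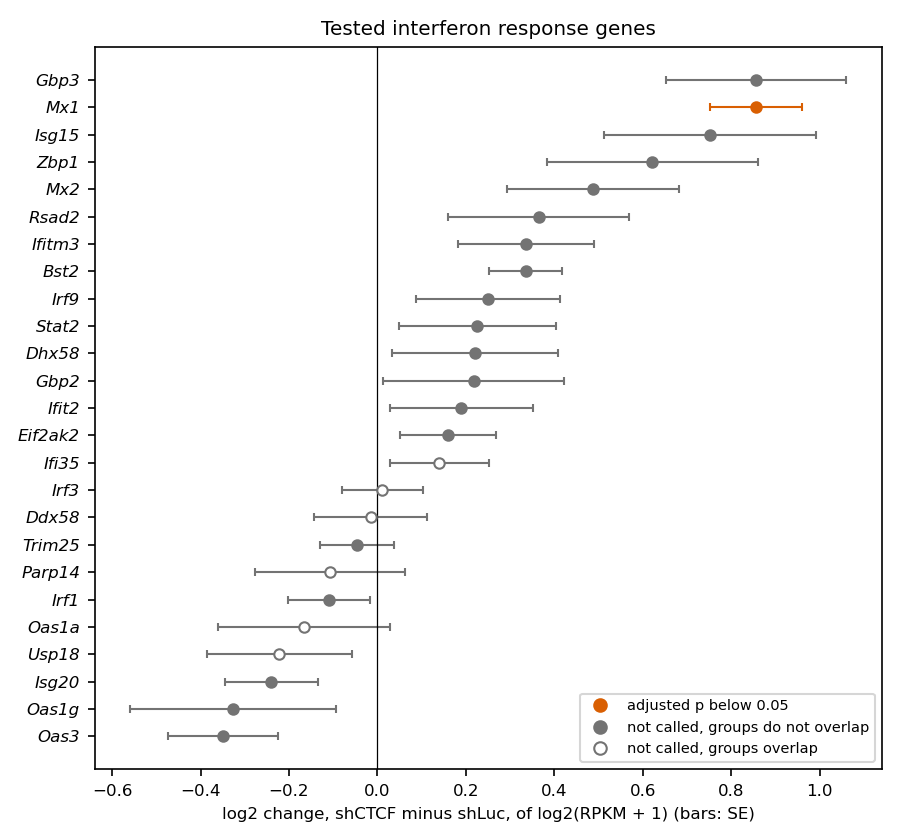
Log2 change (shCTCF minus shLuc, log2(RPKM + 1) scale) with its SE for the 25 tested interferon response genes, in order of size. Mx1 is the only one at an adjusted p below 0.05; Gbp3 has a wider error, and Oas3 and Oas1g lie lowest on this scale, at −0.35 and −0.33.

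Of the sensors of nucleic acid, 3 were tested and limma called 0, with Zbp1 at an unadjusted p below 0.05. Zbp1, a sensor of Z-form nucleic acid that triggers cell death, was at 5.48 and 3.72 RPKM in shCTCF cells, against 1.90 and 3.46 RPKM in shLuc cells. The groups did not overlap, but the libraries within each differed widely. Its change was 0.62 (SE 0.24, adjusted p = 0.28) and ran from 0.31 to 0.93 with 1 library left out. Ddx58 (RIG-I) overlapped between the groups, at 5.86 and 5.23 RPKM in shCTCF cells and 5.64 and 5.57 RPKM in shLuc cells. Dhx58 (LGP2, a regulator of RIG-I and MDA5) was at 1.62 and 1.87 RPKM in shCTCF cells, against 1.42 and 1.28 RPKM in shLuc cells (log2 change 0.22, adjusted p = 0.67). Ifih1, which encodes MDA5, was listed at 0 in all 4 libraries.

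Of 4 tested transcription factors, limma called 0, with 0 at an unadjusted p below 0.05, and the median was 0.12. Irf3, which needs no interferon to be expressed, was at 22.9 and 21.1 RPKM in shCTCF cells, against 22.1 and 21.5 RPKM in shLuc cells, with overlapping groups. Irf1, a factor that interferon-gamma induces quickly, was at 15.9 and 15.8 RPKM in shCTCF cells, against 17.5 and 16.9 RPKM in shLuc cells (log2 change −0.11, adjusted p = 0.67). The groups did not overlap, though they were close. The ISGF3 subunits were low and slightly higher in value. Stat2 was at 2.62 and 2.72 RPKM in shCTCF cells, against 1.82 and 2.49 RPKM in shLuc cells (log2 change 0.23, adjusted p = 0.65), a change of 0.07 with shLuc library 2 left out and 0.38 with library 3 left out. Irf9 was at 2.71 and 2.99 RPKM in shCTCF cells, against 2.10 and 2.39 RPKM in shLuc cells (log2 change 0.25, adjusted p = 0.57). Irf7, the amplifier of type I interferon, was untested and uneven, with 4 and 16 reads in shCTCF and 5 and 9 in shLuc libraries.

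The remaining members were the PARP and other induced genes. The joined Dtx3l+Parp9 row covers a ubiquitin ligase and its ADP-ribosyltransferase partner. It was at 18.6 and 18.6 RPKM in shCTCF cells, against 21.8 and 22.5 RPKM in shLuc cells. The groups were well apart, but the change of −0.24 (SE 0.09) did not pass (adjusted p = 0.27). Parp14 was at 2.16 and 2.61 RPKM in shCTCF cells, against 2.45 and 2.83 RPKM in shLuc cells, with overlapping groups. Ifi35 was at 16.7 and 14.0 RPKM in shCTCF cells, against 13.6 and 14.0 RPKM in shLuc cells, and the excess lay in the shCTCF library headed 2. Xaf1, an apoptosis regulator, was untested at 0.886 and 0.867 RPKM in shCTCF cells, against 0.441 and 1.19 RPKM in shLuc cells, and Ifi44 was listed at 0 throughout.

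**Figure D4:**
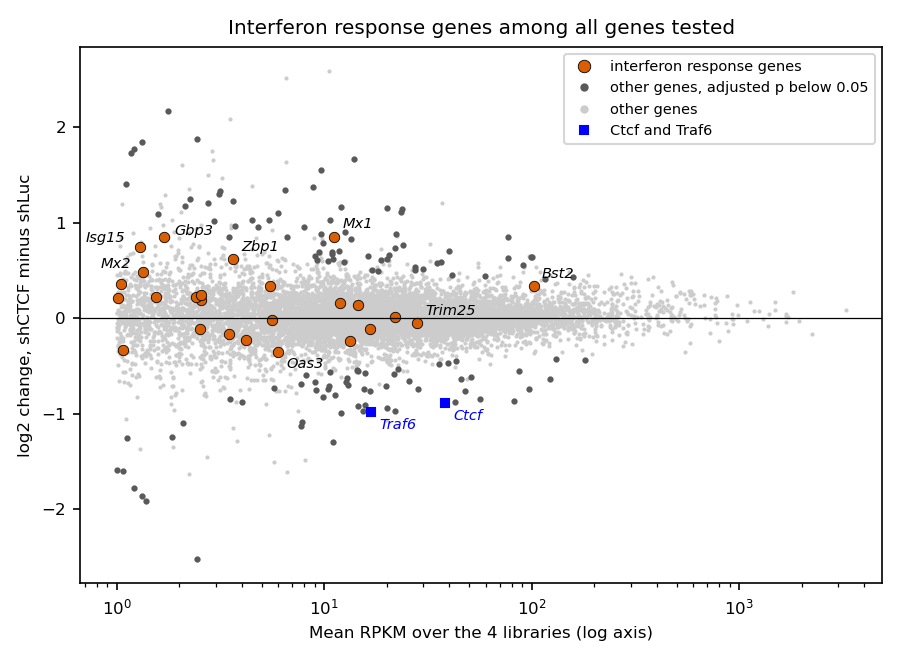
Mean RPKM (log axis) and log2 change of the 9898 tested genes. Orange points are the 25 tested interferon response genes, dark points other called genes and blue squares Ctcf and Traf6; among the members Mx1 lies with the called genes, while most others lie within the grey cloud.

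The rest of the pathway was read from 5 gene lists. Of 19 interferon genes with a row, 0 were tested, and 17 were listed at 0 in every library, Ifnb1 among them. Ifnz gave 2 and 1 reads in shCTCF and 0 in both shLuc libraries, and Ifng 0 and 1 reads in shCTCF and 2 and 1 in shLuc libraries, all within the 3 reads that a count of 0 allows. Of the receptors and JAK-STAT genes, 8 were tested, 2 positive and 6 negative, and limma called 0, with 0 at an unadjusted p below 0.05. Ifnar1, the receptor chain for type I interferon, was at 13.8 and 12.6 RPKM in shCTCF cells, against 14.6 and 14.2 RPKM in shLuc cells (log2 change −0.12), while its partner Ifnar2 was at 20.6 and 24.1 RPKM in shCTCF cells, against 23.9 and 22.4 RPKM in shLuc cells (−0.05). The receptor chains for interferon-gamma, Ifngr1 and Ifngr2, differed by −0.06 and 0.11. Of the signalling chain below them, Tyk2 differed by −0.01 (adjusted p = 0.97) and the joined row Jak1+Raver2 by −0.19 (adjusted p = 0.38). RNA of these receptors and kinases was present in all 4 libraries.

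Among 13 tested genes that induce interferon, 4 were positive and 9 negative, and limma called 1 lower, against 0.596% of all tested genes. Traf6, the ubiquitin ligase that relays Toll-like receptor and interleukin-1 signals, was at 10.8 and 11.1 RPKM in shCTCF cells, against 22.4 and 22.8 RPKM in shLuc cells. It fell by 0.98 (SE 0.09, adjusted p = 0.0075 in limma) and did not pass without either shLuc library (adjusted p 0.15 in both). The NF-κB subunits Nfkb1 and Rela differed by −0.02 and −0.01. Of 11 tested negative regulators, 6 were positive and 5 negative, and limma called 0. At an unadjusted p below 0.05 there were 3 (Ptpn6, Trex1 and Rnf125, all lower in value), against 1398 of all 9898 tested genes. Ptpn6 (the phosphatase SHP-1) was at 278 and 273 RPKM in shCTCF cells, against 355 and 311 RPKM in shLuc cells (log2 change −0.27, adjusted p = 0.21; 0.040 with a replicate block). In the authors' deposited table it is lower at an FDR of 0.026. Rnaseh2c, a subunit of the nuclease that removes RNA from DNA, differed by 0.20 (adjusted p = 0.45).

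Other interferon-induced genes outside the member list gave 16 positive and 22 negative changes in 38 tested genes, with a median of −0.03. In 7 of them both shCTCF libraries lay above both shLuc libraries and in 14 below. Over all tested genes these shares were 24.1% and 19.9%. Limma called 0, with 7 at an unadjusted p below 0.05, against 1398 of all 9898 tested genes. Limma-voom on recovered reads called Irgm1, Pml and Trim30a lower. The authors' deposited table lists Pml (FDR 0.0022) and Trim30a (FDR 0.018) as lower. The most abundant were Ly6e, at 557 and 541 RPKM in shCTCF cells and 551 and 542 RPKM in shLuc cells, and the immunoproteasome subunit Psmb8, which differed by 0.13 (adjusted p = 0.58). Values of 4 such genes follow, all lower in value and named after they were seen. Trim30a, a TRIM protein that restrains inflammatory signalling, was at 3.60 and 3.08 RPKM in shCTCF cells, against 4.71 and 5.67 RPKM in shLuc cells (log2 change −0.51, adjusted p = 0.18). Pml, the scaffold of PML nuclear bodies, was at 24.7 and 24.1 RPKM in shCTCF cells, against 30.9 and 31.1 RPKM in shLuc cells (log2 change −0.33, adjusted p = 0.12). Sp100, another component of these bodies, was at 5.54 and 4.90 RPKM in shCTCF cells, against 7.34 and 7.63 RPKM in shLuc cells (−0.45, adjusted p = 0.15), and Irgm1, an immunity-related GTPase, at 9.61 and 7.63 RPKM in shCTCF cells, against 10.6 and 13.6 RPKM in shLuc cells (−0.45, adjusted p = 0.23). The groups did not overlap in any of these 4, which came from the 14 genes below both shLuc libraries. They do not stand for the 7 above both, such as Ifitm2 (log2 change 0.26, unadjusted p = 0.018 in limma).

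Many members lie in clusters, and the genes around them were looked at in the order of the GRCm38.p6 RefSeq table, a view chosen after values were seen. On chromosome 16, Mx1 and Mx2 flank Fam3b, which was at 0.541 and 0.407 RPKM in shCTCF cells and 0 and 0.383 RPKM in shLuc cells. The nearest tested genes beyond Mx2 differed little, with Tmprss2 at 0.03, Prdm15 at −0.06 and C2cd2 at 0.08. On chromosome 3, the paralogs Gbp5 and Gbp7 beside Gbp3 reached at most 0.276 RPKM in any library, and Gtf2b beyond Gbp2 was at 44.5 and 45.3 RPKM in shCTCF cells and 44.7 and 44.5 RPKM in shLuc cells. Pdlim5, on the other side of the GBP genes, was lower in value in shCTCF cells (−0.30, adjusted p = 0.20). On chromosome 7, Ifitm1 lies between Ifitm2 and Ifitm3. Ifitm1 was untested, at 0.824 and 2.17 RPKM in shCTCF cells, against 0 and 0.292 RPKM in shLuc cells, without overlap. Ifitm2 was at 115 and 117 RPKM in shCTCF cells, against 103.8 and 90.0 RPKM in shLuc cells (0.26, adjusted p = 0.23 in limma). On chromosome 5, the OAS cluster was negative in Oas3, Oas1g, Oas1a and Oas1b (−0.30) and near 0 in Oas1c (−0.01). Rasal1 outside it was at 4.52 and 3.89 RPKM in shCTCF cells, against 2.50 and 2.08 RPKM in shLuc cells (0.66, adjusted p = 0.11). The authors' deposited table lists Rasal1 as higher (log2 fold change 0.86, FDR 0.0054). Neighbours of the IFIT genes, the OASL genes and Parp9 with Parp14 were also looked at and are not plotted. All 4 tested IFIT neighbours were negative, from −0.36 in Acta2 (adjusted p = 0.096 in limma) to −0.03. Acta2 is listed as lower in the authors' deposited table (FDR 0.0059). Tested OASL neighbours ran from −0.62 to 0.27, and those of Parp9 and Parp14 from −0.17 to 0.35.

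**Figure D5:**
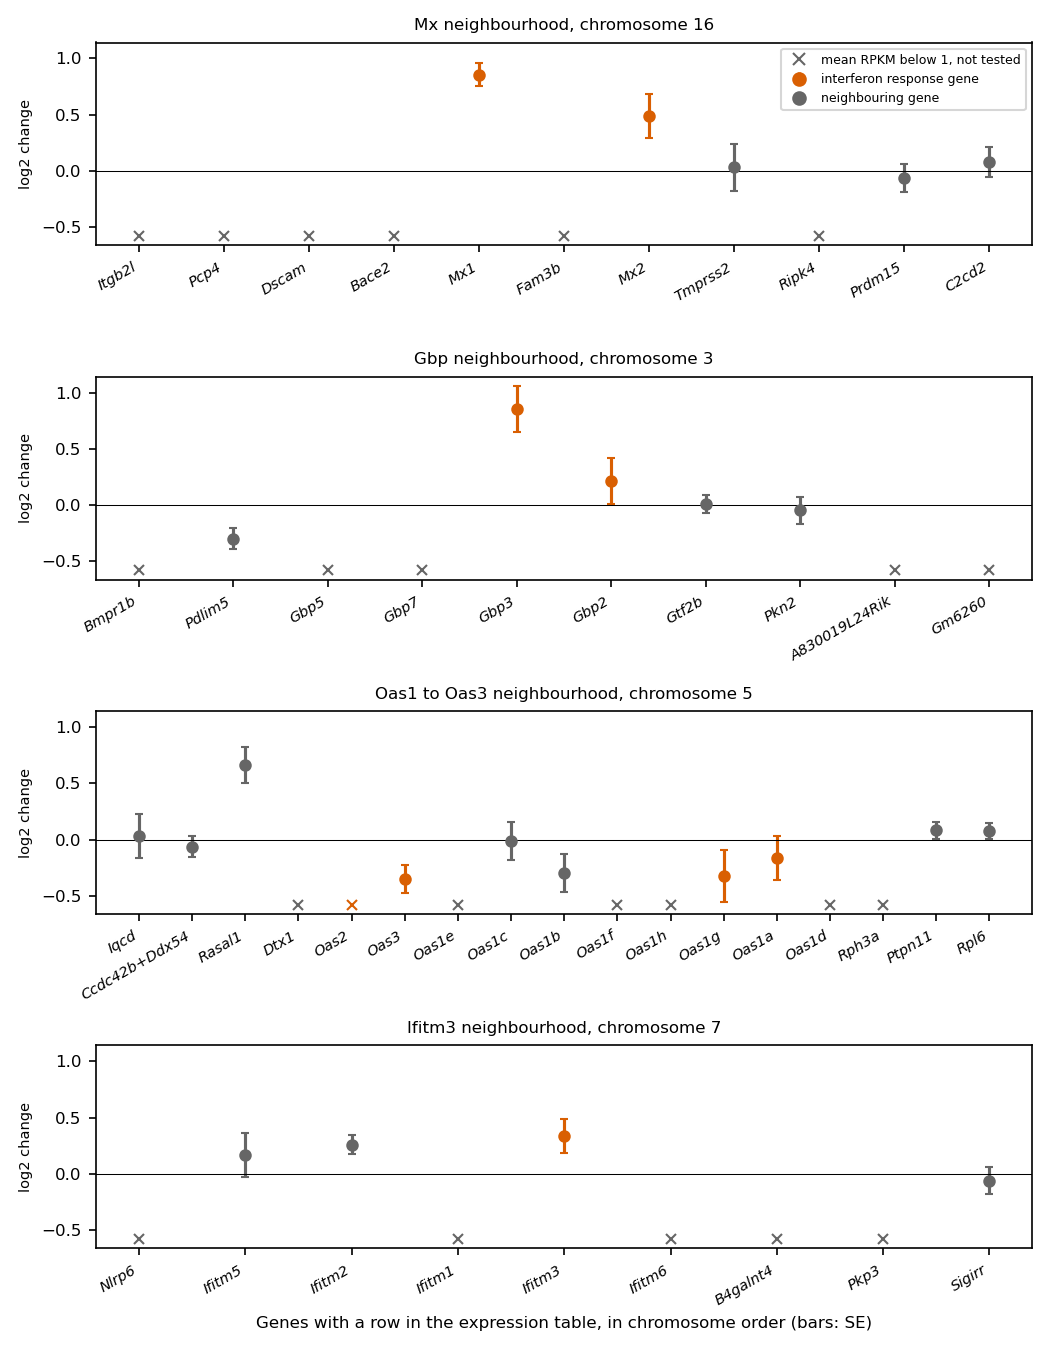
Log2 change (shCTCF minus shLuc) with SE of genes in chromosome order around the MX, GBP, OAS and IFITM genes. Orange points are interferon response genes, grey points their neighbours and crosses at the bottom of a panel genes under a mean of 1 RPKM, which have no change to plot; Mx1 stands at 0.86 while Tmprss2, Prdm15 and C2cd2 lie near 0.

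The authors' deposited table of changed genes, made from the same 4 libraries, lists 0.967% of the 22119 rows as higher and 0.999% as lower. Of the members, 2 are among the higher and 0 among the lower. In the authors' deposited table Mx1 has a log2 fold change of 0.94 (FDR 5.7e-10) and Gbp3 one of 1.42 (FDR 0.0020). Mx1 was called in both places, whereas Gbp3 passed in the authors' deposited table and not in limma on log2(RPKM + 1). From the wider pathway, the authors' deposited table also lists Traf6 (−1.05), Pml (−0.36), Trim30a (−0.67) and Ptpn6 (−0.28), all lower.

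Markers of cells that make or strongly answer interferon were read beside these values. Of 18 myeloid markers, 4 were tested, and their whole list summed to 47.5 and 51.3 RPKM in shCTCF and 39.1 and 48.6 RPKM in shLuc cells, mostly Fcer1g. Cd68, a lysosomal protein of macrophages, was at 3.65 and 3.10 RPKM in shCTCF cells, against 1.70 and 1.46 RPKM in shLuc cells, without overlap (log2 change 0.76, SE 0.17, adjusted p = 0.089 in limma; 34 and 18 reads, rate ratio 2.12, 1.17 to 3.99). The other tested myeloid markers overlapped between groups, with log2 changes of 0.16 for Fcer1g, −0.04 for Fcgr3 and −0.19 for Itgam. Of the 4 tested, 2 were positive and 2 negative, and limma called 0. The markers Lyz1, Emr1, Cd14, S100a8, S100a9 and Elane were at 0 in every library. Of 9 plasmacytoid dendritic cell markers, Siglech and Tcf4 were at 0, and the sum of 57.0 and 62.3 RPKM in shCTCF and 105.7 and 109.9 RPKM in shLuc cells was nearly all Ccr9, a chemokine receptor that T cells also carry. B cell markers summed to 2.36 and 2.22 RPKM in shCTCF and 3.20 and 2.99 RPKM in shLuc cells, with Ms4a1 and Pax5 at 0. NK markers summed to 6.67 and 4.90 RPKM in shCTCF and 3.01 and 5.15 RPKM in shLuc cells, with Klrk1 and Nkg7 at 0. Fibroblast markers summed to 1.60 and 1.76 RPKM in shCTCF and 1.76 and 1.02 RPKM in shLuc cells, with Col3a1 and Fn1 at 0. T cell markers were lower in value in 8 of 9 genes, below both shLuc libraries in 6 (19.9% of all tested genes were), and limma called 0 of them, with 5 at an unadjusted p below 0.05. The authors' deposited table lists Thy1 (−0.36, FDR 4.3e-04) and Cd5 (−0.42, FDR 0.0030) among them as lower. The part of these differences in the interferon results was not tested. In such bulk samples, fewer cells of a type and less RNA per cell cannot be told apart.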

How the data were processed

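Per the submitters' processing notes, reads were aligned with Bowtie2 to mm9; the sources used here name neither its version nor the counter or annotation. The authors deposited RPKM for 22119 rows, and a table of 435 changed genes with log2 fold change, log2 mean CPM, p-value and FDR, per the file headers. The full table heads the libraries of each hairpin 2 and 3, while the other table numbers the same values 1 and 2, so they were used only as replicates of their hairpin (n = 2 each).

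The test was limma's moderated test (version 3.58.1, R 4.3.3; intensity trend in eBayes) applied to log2(RPKM + 1) values without covariates, over the 9898 genes whose RPKM averaged 1 or more. P-values were adjusted by Benjamini-Hochberg over all of them, with a threshold of 0.05. The fit was tested on simulated data. These covered only rows with recovered reads and used a fixed spread, so they do not measure its error rate in the real libraries. Whole reads were recovered from the RPKM steps for 99.8% of 7012 rows with a single transcript and 33.8% of 2886 joined rows (relative tolerance 7e-08). The smallest gene length was taken, so reads can be too low by a common factor. Intervals of read ratios are exact (95%) and cover counting error only. Alternatives were a pseudocount of 0.1, no filter, a mean RPKM of 5 or more, quantile normalization, a replicate block, limma-voom on recovered reads, summed rows and each library left out.

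Members and lists were chosen with earlier results of these data known. Named were all 36 members, Ctcf, called genes of each pathway list with up to 2 of its most abundant genes, and the interferon receptor and JAK kinase genes; 1 gene the rule took is not reported here; others were named once their values had been seen. Domain lists were not used here, since no gene positions in mm9 were at hand. Calculations used Python 3.11.15, numpy 2.4.6, pandas 2.3.3 and scipy 1.17.1, and plots matplotlib 3.10.9.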

Additional observations from a re-analysis of the deposited data

How the results depend on the processing

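With low genes kept in, limma called 0 genes higher and 0 lower (1619 at an unadjusted p below 0.05), so that 0 members were higher, 0 other pathway genes lower, and Ctcf, Mx1 and Traf6 each had an adjusted p of 0.22; the log2 change of Ctcf was again −0.89. Limma-voom on recovered reads covered 7974 genes and 19 members, since Mx1, Mx2, Irf1, Irf9, Isg20 and Zbp1 have no recovered reads. Of these genes, 209 were higher and 191 lower. Among them were 2 members, both higher (Bst2, adjusted p 0.036, and Gbp3, log2 change 1.45, adjusted p 0.0052). Another 4 pathway genes were lower (Irgm1, Pml, Traf6 and Trim30a). The replicate numbers are not stated to pair samples, and the differences between libraries 2 and 3 of the hairpins correlated at 0.165 over 9898 genes. With a replicate block in limma, 294 genes were higher and 213 lower, with 3 members higher (Mx1, Bst2 at an adjusted p of 0.027 and Gbp3 at 0.039) and 3 other pathway genes lower (Pml, Ptpn6 at 0.040 and Traf6).

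The members' median was 0.25 with a pseudocount of 0.1, 0.12 without the filter, 0.0106 at a mean of 5 RPKM or more, 0.15 under quantile normalization and 0.12 to 0.22 with 1 library left out. Leaving out 1 library gave 0 to 49 genes higher and 0 to 35 lower, 0 to 1 members higher, 0 to 1 other pathway genes lower, and −0.92 to −0.86 for Ctcf. Such fits assume that the lone library varies like the other group. Changes near 0 turned sign in some of them, with ranges of −0.0871 to 0.0441 for Nfkb1, −0.106 to 0.0949 for Rela, −0.0459 to 0.0671 for Irf3, −0.0300 to 0.0253 for Adar+Chrnb2, −0.0142 to 0.0263 for Ly6e, −0.0578 to 0.0281 for Tyk2, −0.159 to 0.0561 for Ifnar2, −0.394 to 0.0620 for Oas1a and −0.0855 to 0.0555 for Ddx58. Under quantile normalization Ly6e was at −0.11. Low read numbers limit Isg15, Gbp2, Gbp3, Rsad2, Oas1g, Ifitm3 and Dhx58.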
